A study of Mus musculus with 2 samples.

Results

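The nuclear genes for subunits of the mitochondrial respiratory chain and the ATP synthase were examined in mouse liver. They were chosen by symbol alone, as every gene whose probe set carried 1 symbol beginning with Nduf, Uqcr, Cox4 to Cox8 or Atp5, or equal to Sdha, Sdhb, Sdhc or Sdhd. This gave 90 genes with 179 probe sets, of 18193 genes on the array. Of the 90 genes, 82 encode subunits of complexes I to V and 8 encode assembly factors of complex I. Genes read only by probe sets that carry several symbols are not analysed here. Ndufa4 and its paralog Ndufa4l2 were counted with complex IV, where their products are now placed, and not with complex I as their symbols would have it.

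Liver RNA was hybridised to Affymetrix arrays, 1 from Bglu3 congenic mice and 1 from the control, C57BL/6 apoE-/- mice. Bglu3 is a blood glucose locus on chromosome 1, and congenic mice carry a donor segment of such a locus on the background of another strain, which the labels name as C57BL/6 for both arrays. The mice of both groups went from chow, given from 3 weeks of age, to a Western diet at 6 weeks, stayed on it for 12 weeks, and are described as hyperglycemic. The control mice lack apolipoprotein E, which clears lipoprotein remnants. Whether the congenic mice lack it too is not stated for their array, and neither are the sex, the number of mice behind an array, the donor strain or the ends of the segment. Each group has a single array, so no difference below has a replicate check or a test, and each describes this pair of arrays alone.

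Complex I passes electrons from NADH, and complex II those from succinate, to coenzyme Q. Complex III hands them on to cytochrome c and complex IV to oxygen, and the proton gradient built on the way drives ATP synthesis in complex V. Liver mitochondria use this chain to dispose of the reducing equivalents of fatty acid oxidation, and the ATP they make pays for gluconeogenesis and the urea cycle. Most subunits are encoded in the nucleus, and many of their promoters are known to bind the nuclear respiratory factors, among them NRF-1 and the ETS protein GABP.

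Promoters are shown for some genes that hold a motif named below, and for the lowest genes of complexes I, II, III and V by difference. RefSeq starts were found for 74 of the 90 genes in the promoter table of build GRCm38.p6. Each line gives, 5′ to 3′ on the strand of the gene, the 100 bases that end just before the transcription start, with any core motif of NRF-1 (GCGCATGC) or ETS proteins (CCGGAAG) in capitals, on either strand. The promoters of Atp5k, Atp5g2, Atp5h and Sdhb hold such a motif. Those of Atp5b, Ndufv1, Sdha and Uqcrc1, the genes with the lowest difference in complexes V, I, II and III, hold neither of these exact letter strings. Most subunits lack each string. Of 65 expressed subunits with a promoter, 58 lacked the NRF-1 string and 54 the ETS string, over 250 bases.
Atp5k, minus strand, chr5:108434400-108434499: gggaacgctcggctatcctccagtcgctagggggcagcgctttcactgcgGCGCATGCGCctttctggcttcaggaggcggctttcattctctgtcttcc
Atp5g2, minus strand, chr15:102671048-102671147: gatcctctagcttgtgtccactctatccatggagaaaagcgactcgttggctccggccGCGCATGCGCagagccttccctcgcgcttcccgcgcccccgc
Atp5h, minus strand, chr11:115419920-115420019: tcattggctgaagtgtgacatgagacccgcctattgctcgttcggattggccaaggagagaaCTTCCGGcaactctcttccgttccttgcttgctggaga
Sdhb, plus strand, chr4:140961171-140961270: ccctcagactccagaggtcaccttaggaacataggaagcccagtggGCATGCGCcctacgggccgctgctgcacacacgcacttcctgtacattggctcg
Atp5b, plus strand, chr10:128083207-128083306: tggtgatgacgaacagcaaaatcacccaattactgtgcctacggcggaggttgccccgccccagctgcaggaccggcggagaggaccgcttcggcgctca
Ndufv1, minus strand, chr19:4012756-4012855: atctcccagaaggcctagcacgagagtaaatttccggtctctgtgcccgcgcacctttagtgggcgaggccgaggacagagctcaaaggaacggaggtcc
Sdha, minus strand, chr13:74350241-74350340: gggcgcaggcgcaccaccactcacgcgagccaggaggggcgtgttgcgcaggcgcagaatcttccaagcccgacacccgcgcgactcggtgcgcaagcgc
Uqcrc1, plus strand, chr9:108936548-108936647: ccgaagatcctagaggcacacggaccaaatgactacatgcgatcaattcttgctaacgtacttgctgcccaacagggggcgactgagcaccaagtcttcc

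In Atp5k and Atp5g2 the NRF-1 letters lie on both strands, because the string and its reverse complement overlap there in a palindrome. Over the 250 bases before the start, 8 of the 74 promoters (10.8%) held the NRF-1 string, against 2.32% of the 27025 genes in the table and 4.24% of 10176 expressed genes. The ETS string was present in 13 of 74 (17.6%), against 7.05% of all genes and 12.9% of expressed genes. A core string of the factor YY1, AAGATGG, occurred in 0 of 74 and in 4.52% of all genes. These are matches of letters in a window and are neither binding sites nor a cause of any difference on the arrays. Members and expressed genes had a median GC content of 57.6% and 59.2%, and all genes one of 52%.

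Differences are given as log2(intensity + 5) on the congenic array minus log2(intensity + 5) on the control array, so a negative value means lower in the congenic liver. A gene was represented by its brightest probe set and counted as expressed when this was at or above the median of its array (19.3 in the congenic and 19.7 in the control liver) on at least 1 array. This held for 88 of the 90 genes, and of the 2 others Ndufb4 read 7.84 against 6.35 and Cox7b2 read 11.5 against 5.08. The low values of the probe set for Ndufb4, a subunit of complex I, say nothing about the level of the gene, whose 2 other probe sets carry several symbols. The scatter of both arrays shows most genes just below the diagonal.

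**Figure D1:**
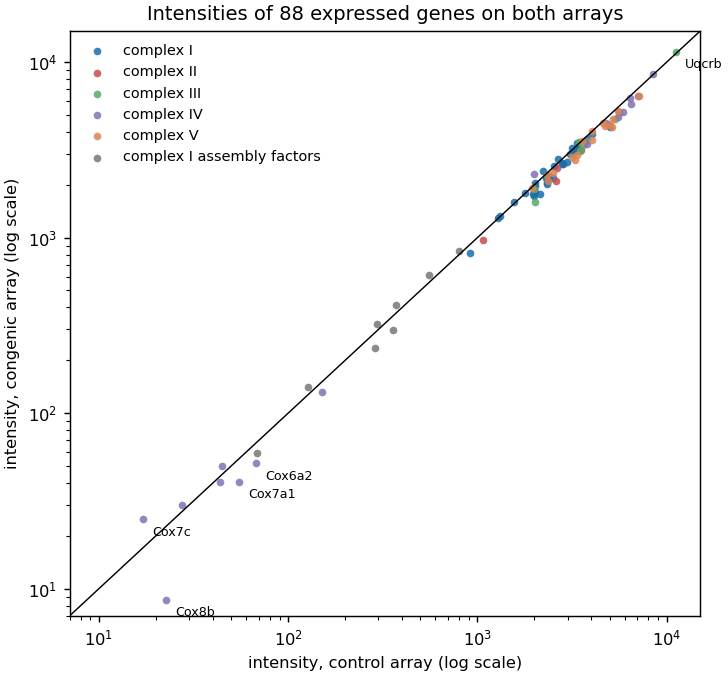
Intensities of the 88 expressed genes on the control array (x axis) and the congenic array (y axis), both on log scales in arbitrary units, with 1 point per gene coloured by complex and a line of equal intensity. Most points lie close to the line and slightly below it, from Cox8b at 8.61 against 22.6 to Uqcrb at 11409 against 11185.

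The genes of the respiratory chain and the ATP synthase were slightly and widely lower on the congenic array. Of the 88 expressed genes 66 (75%) were lower at any size, against 43.8% of the 12613 expressed genes of the array. Their median difference was -0.10, where all expressed genes had a median of 0.04. The 80 expressed subunits had a median of -0.10, which is a 1.07-fold higher intensity in the control, and 63 of them were lower. In bulk liver, fewer cells of a type and less RNA per cell cannot be told apart. Under 4 scalings of the arrays (as deposited, median centring, quantile normalization and removal of a loess trend), 62 of the 88 genes were lower under all 4 and 16 were higher under all 4. Another 8, all close to 0, changed direction (Atp5g2, Atp5j, Atp5md, Cox6a1, Ndufa5, Ndufb1, Ndufb7 and Ndufs4), and Ndufab1 and Uqcrb came to exactly 0 after quantile normalization. The share of members that were lower was 75% as deposited, 71.6% after median centring, 76.1% after quantile normalization and 75% after loess. Of all expressed genes 43.8%, 39.9%, 48.1% and 49.3% were lower, in the same order. How many of all expressed genes kept 1 direction under all 4 was not counted.

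The differences were small for single genes and close to each other. Only 8 of the 88 genes (9.09%) were lower by 1.2-fold or more, fewer than the 17% of all expressed genes. Higher by that much was 1 gene (1.14%), Cox7c, where 23.5% of all expressed genes were. Cox7c counted as expressed only through the congenic array. A difference of 1.5-fold in either direction was seen in 1 gene, Cox8b, while 12.9% of all expressed genes had one. The interquartile range of the subunits ran from -0.17 to -0.03, and that of all expressed genes from -0.16 to 0.25. Among the 3154 brightest expressed genes, with mean intensities of 386 or more, the 75 members had an SD of 0.11 over genes and a median of -0.09. All 3154 genes had an SD of 0.32 and a median of 0.02, and 45.1% of them were lower, against 77.3% of the members. Of these 75 members 5.33% were lower by 1.2-fold or more and 0% higher, against 11.9% and 12.4% of the 3154 genes. By 1.5-fold or more, 87 of the 3154 genes were lower and 102 higher, and 0 of these members were either. The 3154 genes are not matched to the members in brightness, since the 88 expressed members had a median percentile of 96.2 among expressed genes. At brightness percentiles 0 to 25, 25 to 50 and 50 to 75 of all expressed genes the SD was 0.58, 0.43 and 0.35. It thus fell with brightness, and the part of brightness in the narrow spread of the members was not tested. The cumulative curves show a narrow distribution that is displaced to the left.

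**Figure D2:**
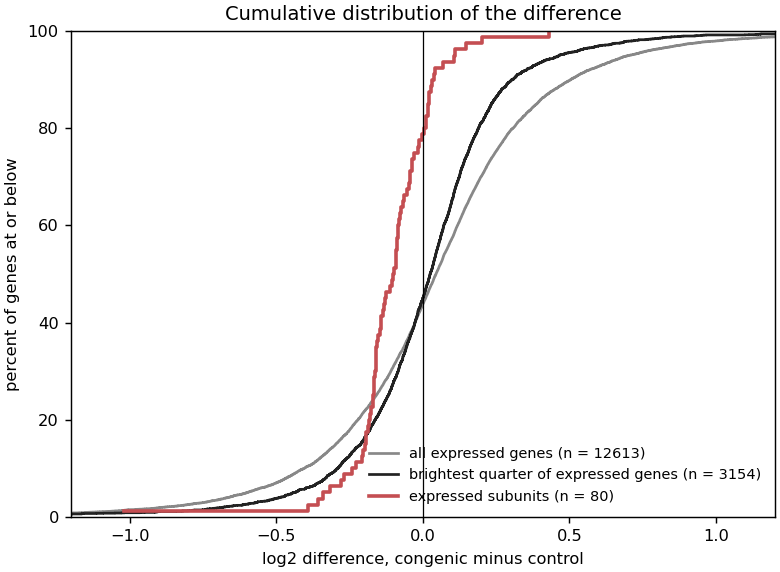
Cumulative percentage of genes (y axis) at or below a given log2 difference, congenic minus control (x axis, cut at -1.2 and 1.2), for all expressed genes (grey, n = 12613), the brightest of them (black, n = 3154) and the expressed subunits (red, n = 80). The red curve is steeper than both others and has passed 78.75% of the subunits at a difference of 0.

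Complexes II and V were lower in every expressed subunit, and complexes I, III and IV in most. The median was -0.09 for complex I (23 of 33 lower), -0.16 for complex II (4 of 4), -0.09 for complex III (6 of 8), -0.13 for complex IV (13 of 18) and -0.13 for complex V (17 of 17). The ranges of the complexes overlapped, and the largest gap between their medians, from complex I to complex II, was smaller than the spread among the subunits of complex I. No test of these gaps is possible. Their order depends on the choice of probe sets, since complex III moved to -0.18 with the mean over expressed probe sets, to -0.17 with every probe set and to -0.19 with plain probe sets alone (those designed to match 1 transcript), where complex II was at -0.16. Median centring left 14 of 17 subunits of complex V lower, quantile normalization 16 and loess 15, while complex II had 4 of 4 under each. Of all expressed genes, 39.9%, 48.1% and 49.3% were lower under these scalings.

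**Figure D3:**
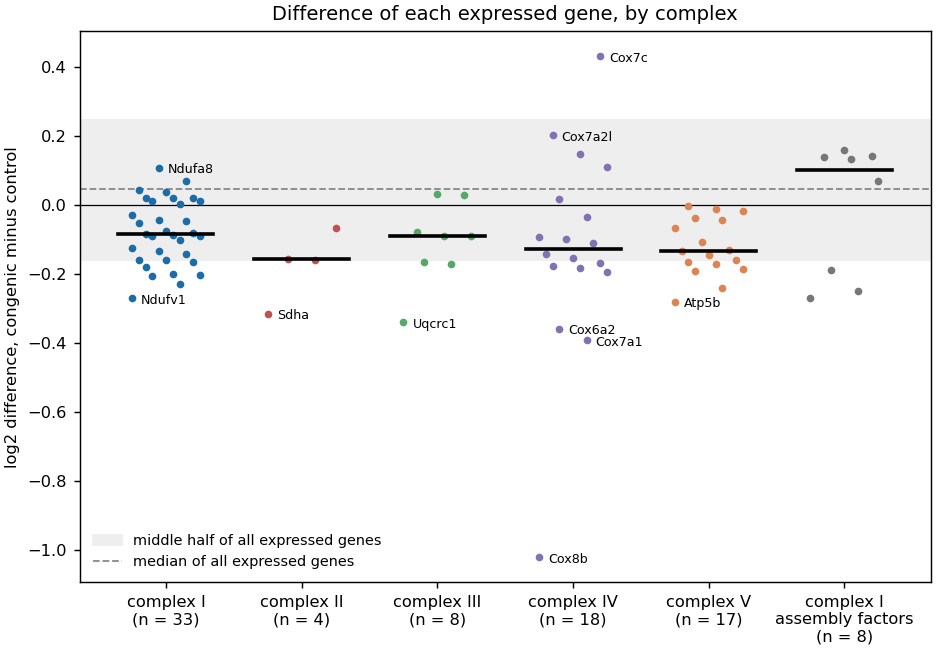
Log2 difference, congenic minus control (y axis), of each expressed gene, grouped by complex (x axis), with a thick bar at the median of the group, the interquartile range of all expressed genes shaded and their median dashed. All points of complexes II and V lie below 0, Cox8b lies at -1.02, and 5 of the 8 assembly factors of complex I lie above 0.

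The core subunits of complex I, which include those that carry its flavin and iron-sulfur clusters, were lower in 5 of 6. Ndufv1, which binds NADH and the flavin, had the lowest difference of the complex, reading 1773 against 2141 (-0.27; congenic first, as in all pairs of intensities), and its 3 probe sets lay between -0.27 and -0.23. Ndufs1, an iron-sulfur protein of the flavin arm, read 818 against 918 (-0.17). Ndufs3 read 2076 against 2322 (-0.16). The clusters nearest to coenzyme Q sit in Ndufs7 and Ndufs8, at 1973 against 2015 (-0.03) and 2179 against 2312 (-0.09). Ndufv2, the partner of Ndufv1 in the flavin arm, was level at 2548 against 2542 (0.0032), so these subunits of 1 arm were not displaced alike.

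The 27 expressed accessory subunits of complex I, which surround the core and are needed to build it, had a median of -0.08, with 18 lower, 9 higher and none past 1.2-fold. Ndufa1, a small membrane protein needed for assembly, read 4291 against 5028 (-0.23). Ndufa9 read 1725 against 1992 (-0.21), Ndufc1 2189 against 2523 (-0.20) and Ndufa10 2026 against 2327 (-0.20). These were the accessory subunits furthest below 0. On the other side were Ndufa8 with 2399 against 2227 (0.11) and Ndufa2 with 2791 against 2662 (0.07). Ndufab1, the mitochondrial acyl carrier protein, read 3003 against 3097 (-0.04).

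Complex II, the only complex of the chain that also works in the citric acid cycle, was lower in all 4 subunits. Sdha, the flavoprotein that oxidises succinate, read 2094 in the congenic and 2607 in the control liver (-0.32). A second bright probe set of Sdha read 1665 against 2051 (-0.30), close to the first. Sdhb, which carries the iron-sulfur clusters, read 3151 against 3523 (-0.16). The membrane anchors Sdhc and Sdhd read 964 against 1075 (-0.16) and 2504 against 2626 (-0.07). A second probe set of Sdhc, at 305 against 497, gave -0.69, so which subunit was furthest below 0 depends on the probe set.

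In complex III the lowest value belonged to Uqcrc1, a core protein of the matrix side, with 1599 against 2027 (-0.34). This was the furthest below 0 of the 75 members among the brightest genes, and it rests on 1 probe set. Its partner Uqcrc2 read 3540 against 3768 (-0.09), although a second probe set with 1984 against 2540 gave -0.36. Uqcrfs1, the Rieske iron-sulfur protein, read 3382 against 3603 (-0.09). Among the small subunits, Uqcr11 was at 3101 against 3494 (-0.17) and Uqcrq at 4765 against 5346 (-0.17), while the hinge protein gene Uqcrh was at 3525 against 3452 (0.03), with a second probe set at 3288 against 3509 (-0.09). Uqcrb read 11409 against 11185 (0.03) and was among the brightest genes, with array maxima of 14440.3 and 13395, and its second probe set read 2450 against 2813 (-0.20). By their second probe sets, both of these genes were thus lower.

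Complex IV held both the lowest and the highest difference of all members, Cox8b and Cox7c, and both come from dim probe sets. Cox8b counted as expressed only through the control array and Cox7c only through the congenic array. Each entered through the array where it was high, so the direction of neither is a result. Its 10 subunits other than tissue isoforms and Cox7c had a median of -0.13, with 8 lower and none past 1.2-fold. Cox6c read 4855 against 5556 (-0.19), Ndufa4 5224 against 5911 (-0.18), Cox6b1 5788 against 6503 (-0.17) and Cox5a 6414 against 7089 (-0.14). Cox4i1, a subunit through which ATP slows the enzyme, read 6229 against 6387 (-0.04). Cox8a was at 3413 against 3797 (-0.15), Cox7a2 at 5204 against 5625 (-0.11) and Cox5b at 4493 against 4791 (-0.09). Cox6a1 read 8610 against 8514 (0.02) with its brightest probe set and 4224 against 4916 (-0.22) with its other one.

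Cox7a2l went the other way. Its product, related to Cox7a2, helps complexes III and IV to join into supercomplexes. It read 2296 in the congenic and 1997 in the control liver (0.20), and its 3 probe sets were all higher, between 0.09 and 0.24. Of the 75 members among the brightest genes it was the furthest above 0, and the assembly factor Ndufaf4 came next at 0.16.

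Isoforms of complex IV that are known from heart and skeletal muscle, testis or lung gave low intensities on both arrays. Cox6a2 and Cox7a1, of heart and muscle, read 51.7 against 67.7 (-0.36) and 40.67 against 54.98 (-0.39). Cox8b, of muscle and brown fat, read 8.61 against 22.6 (-1.02), and only its control value was above the median of the array. The lung isoform gene Cox4i2 was at 49.7 against 44.5 (0.15), and Cox6b2 and Cox8c, known from testis, were at 40.3 against 43.6 (-0.10) and 132 against 151 (-0.18). Ndufa4l2, which is induced by low oxygen, read 29.9 against 27.3 (0.11). The only Cox7c probe set that counted as expressed did so through the congenic array alone. It read 24.8 against 17.1 (0.43), an intensity near the median of all probe sets. This probe set thus cannot stand for the level of this general subunit. Of 10 skeletal muscle markers 2 counted as expressed, Acta1 at 83.7 against 97.0 and Actn3 at 12.6 against 21.0. Actn3 did so only through the control array, so its direction is not a result. The other 8 (Ckm, Myh1, Myh2, Myh4, Tnnt3, Tnni2, Mb and Tnnc2) lay between 1 and 16.6 on both arrays. The 10 muscle markers summed to 144 in the congenic and 167 in the control liver, and their part in the isoform values was not tested. Brown fat markers, of which 3 of 5 were expressed and Cox8b was 1, summed to 135 against 244. Most of this sum came from Elovl3, at 84.9 against 186. Adipoq, the remaining expressed marker, went the other way at 24.1 against 21.3 (0.14). Ucp1, which defines brown fat, read 8.07 against 2.66 and Cidea 9.6 against 11.5, and neither counted as expressed.

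All 17 subunits of the ATP synthase were lower, from -0.28 to -0.0028. The F1 part, made of the catalytic head and the central stalk, was furthest from 0, with a median of -0.17 over 5 subunits. Atp5b, the catalytic beta subunit, read 4250 in the congenic and 5165 in the control liver (-0.28). Atp5a1, the alpha subunit, read 2785 against 3293 (-0.24). The subunits of the central stalk followed, with Atp5d at 3589 against 4042 (-0.17), Atp5e at 2864 against 3168 (-0.15) and the gamma subunit Atp5c1, the rotating shaft, at 5275 against 5523 (-0.07).

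The peripheral stalk, which holds the head still against the rotor, had a median of -0.12 over 4 genes. Atp5pb read 4365 against 4992 (-0.19), Atp5h 4760 against 5212 (-0.13), Atp5o 2333 against 2513 (-0.11) and Atp5j 3551 against 3582 (-0.01). The c subunit of the rotor ring is encoded by 3 genes whose mature protein is the same. Atp5g3 read 6386 against 7172 (-0.17), Atp5g1 2280 against 2341 (-0.04) and Atp5g2 1926 against 1949 (-0.02). Atp5g3 was thus lower by more than both of its paralogs. In the membrane, Atp5k stood at 2940 against 3346 (-0.19), Atp5mpl at 2099 against 2347 (-0.16), Atp5j2 at 4323 against 4741 (-0.13), Atp5l at 4494 against 4631 (-0.04) and Atp5md at 4046 against 4054 (-0.0028). Atp5g2, Atp5j and Atp5md lay so near 0 that their direction depends on the scaling of the arrays.

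Among the assembly factors of complex I, 3 of 8 were lower and 5 higher, a share of 37.5% lower where all expressed genes had 43.8%. Their median of 0.10 became 0.13 after median centring, 0.05 after quantile normalization and 0.05 after loess. Ndufaf4 read 414 against 370 (0.16), Ndufaf7, a protein methyltransferase, 140.1 against 127 (0.14), Ndufaf2 612 against 555 (0.14) and Ndufaf3 324 against 295 (0.13). Ndufaf8 was at 837 against 798 (0.07). In contrast, Ndufaf6 read 236 against 286 (-0.27), Ndufaf1 299 against 357 (-0.25) and Ndufaf5 59.1 against 68.1 (-0.19). The direction of these 5 higher and 3 lower genes was kept under all 4 scalings. Another 33 expressed assembly factors, for all complexes, had a median of -0.01 with 17 lower, which became 0.02 with 13 lower after median centring, and -0.04 (quantile normalization) and -0.05 (loess), each with 18 lower. Cox10, which makes the heme of complex IV, was at 88.8 against 165 (-0.86) and Ttc19, of complex III, at 51.7 against 68.2 (-0.37), while Tmem126b and Sdhaf1, factors of complexes I and II, differed by 0.35 and 0.28.

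Several probe sets read the same gene in 47 of the 88 genes, and they mostly pointed the same way. In 29 of these 47 genes (61.7%) every expressed probe set was lower, against 23.4% of 5189 expressed genes with several probe sets. Over all 162 expressed probe sets of the members 124 were lower at any size (76.5%), where 46.3% of all expressed probe sets were. Probe sets of 1 gene differed among themselves with a pooled SD of 0.18, and those of all genes with one of 0.34. Probe sets of a gene read the same RNA, which is not replication over mice, and an SD of 0.18 is larger than the median difference of the members.

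Some second probe sets were further from 0 than the brightest one. Of the 162 probe sets 5 were lower by 1.5-fold or more, and 6.04% of all expressed probe sets were. Besides that of Cox8b these were a probe set of Uqcrq at 6.71 against 22.8 (-1.25), one of Ndufab1 at 109 against 208 (-0.89), the second one of Sdhc (-0.69) and one of Sdha at 10.7 against 19.7 (-0.66). Those of Cox8b, Uqcrq and Sdha counted as expressed only through the control array, where they were high, so 3 of the 5 had to be lower. The Sdhc value comes from an intensity well above the median of the array, and the brightest probe set of this gene gave -0.16. Ndufab1 had 1 more expressed probe set, on the other side, at 53.7 against 42.9 (0.29).

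**Figure D4:**
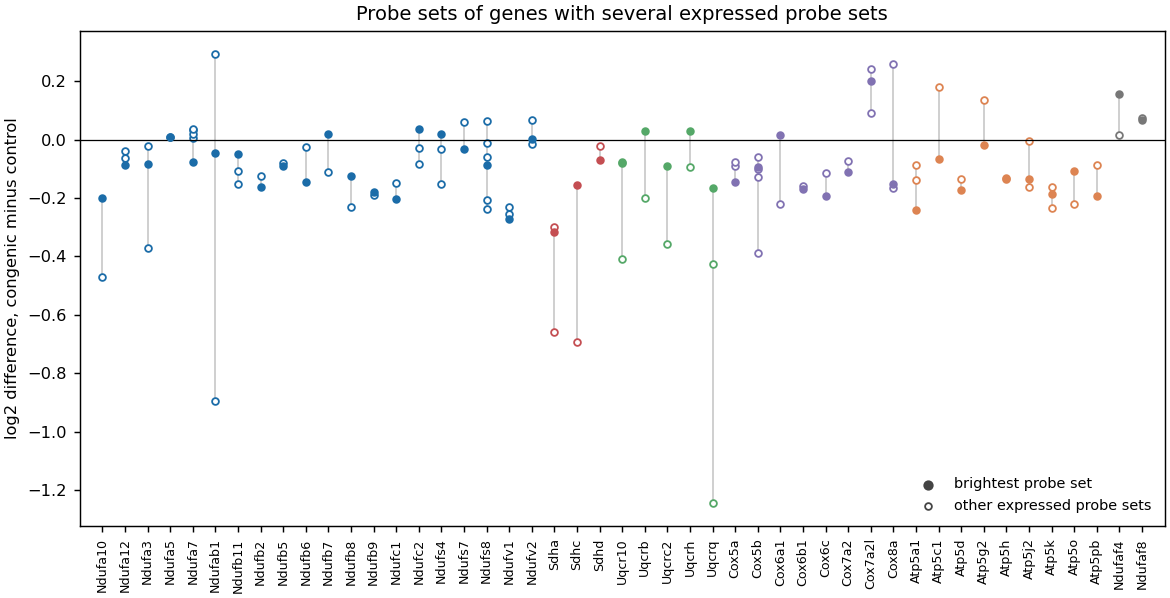
Log2 difference, congenic minus control (y axis), of every expressed probe set of the members with at least 2 expressed probe sets (x axis, ordered by complex), with the brightest probe set filled and the others open. The 3 probe sets of Cox7a2l lie above 0, those of Ndufv1 lie between -0.27 and -0.23, and Uqcrq, Ndufab1 and Sdhc have the longest ranges.

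The locus under study lies on chromosome 1, which carries 5 expressed members. All 5 were lower, with Ndufa10 at -0.20, Ndufs1 at -0.17, Sdhc at -0.16, Ndufb3, an accessory subunit of complex I that read 1827 against 2007, at -0.13, and Cox5b at -0.09. Their median was -0.16, against -0.09 for the 83 members on other chromosomes, which ranged from -1.02 to 0.43. Of those 83 members 61 (73.5%) were lower as well. All 732 expressed genes of chromosome 1 had a median of 0.04, with 44.7% lower. Which of these genes lie inside the donor segment was not analysed here.

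Other mitochondrial gene lists were compared on the same scale. The list of the citric acid cycle and pyruvate dehydrogenase had a median of -0.13, with 14 of 17 expressed genes lower at any size (82.4%, against 43.8% of all expressed genes). Of the 17, 3 (17.6%) were lower by 1.2-fold or more, a share near the 17% of all expressed genes. Pdhb and Pdha1, subunits of pyruvate dehydrogenase, read 1707 against 2083 (-0.29) and 1104 against 1341 (-0.28), and Dld, shared by the dehydrogenase complexes, 506 against 619 (-0.29). Citrate synthase, Cs, was at 752 against 830 (-0.14). Fh1, the fumarase on chromosome 1, went the other way with 4056 against 2975 (0.45), and Idh3a, of isocitrate dehydrogenase, differed by 0.04. After median centring 12 of the 17 were lower, and 15 after quantile normalization or loess, where 39.9%, 48.1% and 49.3% of all expressed genes were.

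Coenzyme Q synthesis had a median of -0.09 over 11 genes, with 8 lower (72.7%, against 43.8% of all expressed genes). The median became -0.06 with 8 lower after median centring, and -0.10 (quantile normalization) and -0.13 (loess), each with 10 lower. The lowest genes of this list were Coq10b, a coenzyme Q binding protein encoded on chromosome 1, at 198 against 357 (-0.83) and Coq10a at 114 against 133 (-0.21). Its highest were Coq4 at 0.12 and Coq3 at 0.02. Electron carriers and exchange proteins had a median of -0.02 over 12 genes, with 7 lower (58.3%, against the same 43.8%). This median turned to 0.0086 after median centring. Somatic cytochrome c, Cycs, read 4423 against 4424 (-0.00037). The inhibitor of the ATP synthase, Atpif1, was at 653 against 489 (0.41) and the adenine nucleotide carrier Slc25a4 at 383 against 246 (0.63), while its relative Slc25a5 was at 5629 against 5928 (-0.07). The testis cytochrome c gene Cyct read 2.42 against 23.6 (-1.95) and counted as expressed only through the control array. Etfa, which feeds electrons from fatty acid oxidation into the chain, read 3309 against 3649 (-0.14).

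Genes that govern mitochondrial transcription and replication were mixed, with a median of -0.04. Of these 16 genes 9 were lower (56.25%, against 43.8% of all expressed genes). The median was -0.01 after median centring, -0.08 after quantile normalization and -0.09 after loess, each with 9 lower. Ppara, the receptor that drives fatty acid oxidation genes, had 882 against 1373 (-0.63), and Tfb2m, a transcription factor of mitochondrial DNA encoded on chromosome 1, 317 against 440 (-0.46). Ppargc1a, the coactivator of mitochondrial biogenesis, was at 160.1 against 176 (-0.14), and its relative Ppargc1b at 199.6 against 153 (0.38). Nrf1, which encodes NRF-1, read 38.8 against 30.3 (0.31), Gabpa 473 against 451 (0.07) and Tfam, which packs mitochondrial DNA, 478 against 516 (-0.11). ND5, the only mitochondrially encoded subunit with a probe set of 1 symbol, read 5596 against 5765 (-0.04).

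**Figure D5:**
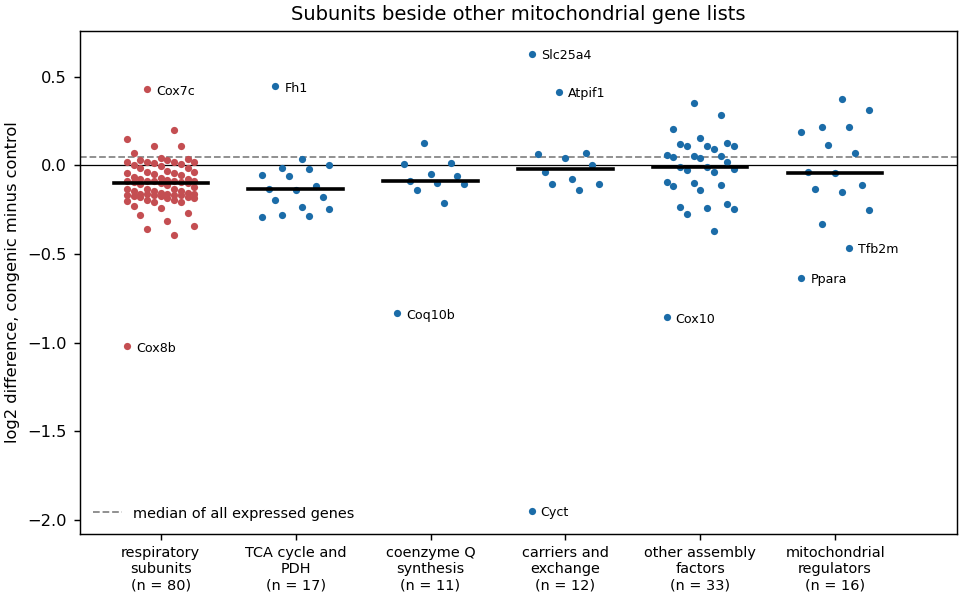
Log2 difference, congenic minus control (y axis), of expressed respiratory subunits (red) and of 5 other mitochondrial gene lists (blue), with a thick bar at each median and the median of all expressed genes dashed. The subunits and the citric acid cycle list have medians of -0.10 and -0.13, and the other assembly factors one of -0.01.

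Markers of other cell types were measured on the same pair of arrays. All 11 macrophage and Kupffer cell markers were higher on the congenic array (median 0.74) and summed to 30146 against 19400. The 9 neutrophil markers, all higher, summed to 12747 against 5119, and most of both sums came from Lcn2 at 8590 against 3853. The median of these 9 markers, 2.27, became 1.58 with a pseudocount of 20 and 2.65 with none. Camp, Ltf, Mpo and Prtn3 (6.35 to 16.6 in the control) counted as expressed only through the congenic array. The 6 B and plasma cell markers summed to 1100.1 against 274, with a median of 1.99 over the 5 expressed. The 9 hepatocyte markers summed to 75632 against 75078 with a median of 0.03 (6 higher, 3 lower), which became -0.02 after quantile normalization, and they include Hnf4a at -0.26 and Tdo2 at -0.32. Most of that sum comes from Alb, Ttr, Apoa1, Hpd and Cps1, which read 9829 to 14121, at or near the array maxima, and this limits what the sum can show. Erythroid markers summed to 267 against 204, over 4 genes of which 3 were expressed. The part of these cells in the differences of the respiratory genes was not tested.

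The differences were set beside the promoter strings. The 7 expressed subunits whose promoter holds the NRF-1 string had a median of -0.02 (4 of 7 lower) and a range from -0.19 to 0.11, and the 58 without it a median of -0.10 (48 lower). With the ETS string the median was -0.13 over 11 subunits (8 lower), and without it -0.09 over 54 (44 lower). The ranges overlapped in both cases, and neither gap between medians was tested. Atp5k and Atp5g2, whose palindromes are shown above, stood at -0.19 and -0.02.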

How the data were processed

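The deposited values are linear intensities, with 45101 probe sets read on both arrays. Per the labels' protocols, 8 µg of total RNA went into the biotin labelling. The authors' method of probe summary and scaling is not given in the sources read here. Intensities were used as deposited (medians of 19.3 and 19.7, a log2 ratio of -0.03). Control probe sets (64) were left out, 34945 probe sets had 1 symbol in the platform annotation, 932 had several and 9160 none. All 90 member genes matched the gene table of GRCm38.p6, used for chromosomes alone.

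The number of arrays, 1 per group, limits the precision. A pseudocount of 5 was added, on which differences of dim genes depend. The size rules were 1.2-fold and 1.5-fold. Alternatives were 3 other scalings, pseudocounts of 20 or none, other expression filters, other rules for several probe sets, other size rules and another place for Ndufa4. Members, lists and rules were chosen with earlier results of these data known. Named genes were the extremes of each complex, catalytic subunits, isoforms, members on chromosome 1, outlying probe sets and the extremes of each list, and a few others were added for their role after values were seen. Python 3.11.15 with pandas 2.3.3 and statsmodels 0.14.6 was used, and the procedure was tested on simulated data.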

Additional observations from a re-analysis of the deposited data

How the results depend on the processing

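No paired analysis was possible because each group has 1 array. Medians of all members and of each complex kept their sign under every alternative run, and the median of all members lay between -0.15 and -0.07. A median was said to have moved when it changed by 0.1 or more on the log2 scale. A count was said to have moved when the larger value exceeded 1.5 times the smaller. The median of complex II became -0.29 with the mean over expressed probe sets, and that of complex III ranged from -0.19 to -0.06 over the alternatives. The number of members lower by 1.2-fold or more became 5 of 88 after median centring (5.68%, against 15.4% of all expressed genes). With the 75th percentile as the filter it was 5 of 80 (6.25%, against 12.5%). Counting every expressed probe set gave 19 of 162 (11.7%, against 19%). At 1.5-fold it was 1 of 88 and at 1.1-fold 36 of 88 (40.9%), where 664 and 3418 of the 12613 expressed genes were lower. Among the 3154 brightest expressed genes, chosen after the data were seen, it was 4 of 75 members (5.33%, against 11.9%). Without tissue isoforms and Cox7c, also chosen after the data were seen, it was 5 of 80 (6.25%, against 17%). The number lower at any size was 124 of 162 when every probe set was counted (76.5%, against 46.3% of all expressed probe sets). Median centring kept the same 88 genes and shifted their differences upward. The other size rules kept these genes too and changed the cutoff alone. The mean over expressed probe sets changed the values of single genes. In the other cases fewer or more genes or probe sets entered, and no further cause was tested. Intensities close to the median of the arrays limit what can be said of Cox8b, Cox7c and the other isoforms.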
